A study of Mus musculus with 60 samples.

Results

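The genes described here make up the switch at which a cell commits to DNA replication: the D cyclins Ccnd1, Ccnd2 and Ccnd3, their kinase partners Cdk4 and Cdk6, the INK4 inhibitors Cdkn2a, Cdkn2b and Cdkn2c, and Rb1, the substrate on which they converge. They were found as every probe set of the array annotated with 1 of these symbols and no other. This gave 24 of 34958 probe sets with a single symbol, and 9 of 18194 genes. Ccnd2 had 7 probe sets, Ccnd1, Ccnd3, Cdk4 and Cdk6 had 3 each, Rb1 had 2, and each INK4 gene had 1. All 9 genes were among the 12791 that exceeded the median of their array on 8 or more arrays and entered the comparisons, and 23 of the 24 probe sets met that rule.

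The data came from 60 carcinoma samples of 55 FVBBX mice, a backcross of Mus spretus (SPRET/Ei) and FVB/N to FVB/N, so that each animal carries its own mixture of alleles from both species. Every carcinoma arose on back skin treated with the carcinogen DMBA and the promoter TPA, and no untreated skin was compared here. By histology, 13 mice had spindle carcinomas (14 samples), which look like fibroblasts, 35 had squamous cell carcinomas or SCCs (38 samples), which look like epidermis, and 7 had no histology label (8 samples). Of the SCC mice, 9 had poorly, 13 moderately and 13 well differentiated tumours. The p53 label read mutant in 14 mice (4 spindle, 8 SCC, 2 with no histology label) and not mutant in 41 (9, 27 and 5). By papillomas at 20 weeks, 17 mice were resistant (fewer than 2), 16 were sensitive (more than 7) and 22 lay between. Each sample was bulk tissue, a mixture of tumour cells and stroma, the labels give no age, and 5 mice contributed 2 samples, which were averaged. In 3 of these mice the titles number the carcinomas apart, whereas in the other two (SCC 3 and 4, and the pair with no histology label) they give 1 carcinoma number to both samples, which may thus come from 1 tumour.

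D cyclins are made in response to growth signals and bind CDK4 or CDK6, which then phosphorylate the retinoblastoma protein and release E2F transcription factors. INK4 proteins bind CDK4 and CDK6 directly and block them. In skin carcinogenesis the pathway is known from cyclin D1, which acts downstream of RAS, and from the Cdkn2a locus, which encodes both the CDK inhibitor p16Ink4a and, from another first exon read in another frame, p19Arf, which stabilises p53.

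Values are log2 expression levels per probe set. They can be compared between tumours for 1 probe set but not between probe sets. The array medians lay between 4.43 and 4.56. A gene was represented by its probe set of highest mean, and differences between groups of mice were tested with limma, adjusted by Benjamini-Hochberg over all 12791 genes, with 0.05 as the threshold. On 9 arrays the sex-linked transcripts went against the labelled sex, and 4 arrays were nearly identical to an array of another mouse (r = 0.988 and 0.991), so results that turn on them are also given without them.

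The promoters of the INK4 genes are shown because Cdkn2b and Cdkn2a carried the largest differences between histologies, because Cdkn2c differed the other way, and because the 2 starts of Cdkn2a cannot be told apart by its single probe set, whose name marks it as a set that matches alternative transcripts of a gene. They come from RefSeq on build GRCm38.p6, which held 9 promoter windows for 6 of the 9 genes, each of 300 bases (250 before the start and 50 after). The windows shown are read 5′ to 3′ on the minus strand of chromosome 4. Capitals mark matches on either strand to E2F motifs (TTTCCCGC, TTTCGCGC, TTTGCCGC or TTTGGCGC), a CRE (TGACGTCA), an AP-1 site (TGACTCA), an E-box (CACGTG) or a GC box (GGGCGG). Of 2 windows for Cdkn2c, the upstream one is shown. The Arf start lies upstream of the p16Ink4a start, and Cdkn2b lies upstream of both.
Cdkn2a, Arf start, chr4:89294570-89294869: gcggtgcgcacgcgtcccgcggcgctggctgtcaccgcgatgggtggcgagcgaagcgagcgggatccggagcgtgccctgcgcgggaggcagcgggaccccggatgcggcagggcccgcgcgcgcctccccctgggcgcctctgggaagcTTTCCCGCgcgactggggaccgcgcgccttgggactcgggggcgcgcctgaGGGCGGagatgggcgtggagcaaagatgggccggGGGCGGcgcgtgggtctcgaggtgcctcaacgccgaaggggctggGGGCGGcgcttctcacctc
Cdkn2a, p16Ink4a start, chr4:89282143-89282442: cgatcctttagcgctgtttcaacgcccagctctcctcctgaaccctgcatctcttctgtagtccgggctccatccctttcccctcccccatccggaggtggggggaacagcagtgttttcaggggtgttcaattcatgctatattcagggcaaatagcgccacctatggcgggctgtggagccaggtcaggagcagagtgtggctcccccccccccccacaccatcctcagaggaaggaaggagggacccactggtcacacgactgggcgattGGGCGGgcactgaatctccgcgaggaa
Cdkn2b, chr4:89310983-89311282: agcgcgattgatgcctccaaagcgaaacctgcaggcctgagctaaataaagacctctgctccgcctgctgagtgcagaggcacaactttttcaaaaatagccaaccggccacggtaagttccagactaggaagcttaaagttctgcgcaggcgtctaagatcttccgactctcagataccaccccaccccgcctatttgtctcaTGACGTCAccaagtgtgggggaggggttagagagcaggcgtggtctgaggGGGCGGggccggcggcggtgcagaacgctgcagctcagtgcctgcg
Cdkn2c, chr4:109666707-109667006: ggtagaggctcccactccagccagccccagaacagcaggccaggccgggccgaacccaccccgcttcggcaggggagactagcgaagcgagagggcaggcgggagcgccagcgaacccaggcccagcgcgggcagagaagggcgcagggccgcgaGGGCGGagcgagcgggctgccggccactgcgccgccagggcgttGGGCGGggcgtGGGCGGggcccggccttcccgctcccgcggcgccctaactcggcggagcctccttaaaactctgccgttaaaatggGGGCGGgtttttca
The Arf window held 1 E2F match and 3 GC boxes, and the p16Ink4a window 1 GC box. The Cdkn2b window held 1 CRE match and 1 GC box. The Cdkn2c window held 4 GC boxes. Of all 32851 promoter windows in the table, 2.26% held an E2F match, 1.79% a CRE, 5.20% an AP-1 match, 7.15% an E-box and 35.7% a GC box.

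Spindle carcinomas were set against SCCs to ask whether the machinery at this switch differs between the fibroblast-like and the squamous form of the tumour. Cdkn2a, Cdkn2b, Ccnd2 and Rb1 fell and Cdkn2c rose in spindle carcinomas, while Ccnd1, Ccnd3, Cdk4 and Cdk6 did not pass the test. That is 5 of 9 genes called, beside 26.5% of all genes tested (15.5% higher and 11% lower). Transcripts of the 3 INK4 genes therefore did not move together. In bulk tumours, fewer cells of a type and less RNA per cell cannot be told apart.

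Cdkn2b, which encodes p15Ink4b, an inhibitor known to be induced by TGF-beta, had the largest difference. It was 3.36-fold lower in spindle carcinomas, at 6.14 ± 2.20 in 13 spindle mice and 7.88 ± 1.28 in 35 SCC mice (log2 level, mean ± SD; log2 difference −1.75, SE 0.50, limma adjusted p = 0.00727). Its lowest, median and highest levels were 3.86, 6.29 and 8.86 in spindle mice, and 3.96, 7.95 and 9.64 in SCC mice. The spindle median of 6.29 is the mean of samples at 3.82 and 8.76 from 1 mouse (spindle 8 and 9). The ranges overlapped almost fully, and the difference lay in how many mice were low: 6 of 13 spindle mice were below the lowest array median (4.43), as was 1 of 35 SCC mice.

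Cdkn2a was 2.88-fold lower in spindle carcinomas (4.76 ± 1.91, against 6.29 ± 1.61 in SCCs; log2 difference −1.53, SE 0.53, limma adjusted p = 0.0289). The lowest, median and highest levels were 2.51, 3.81 and 8.00 in spindle mice and 2.40, 6.48 and 9.12 in SCC mice. In 8 of 13 spindle mice it lay below the lowest array median, and in 5 of 35 SCC mice. The mouse of spindle 8 and 9 was not counted as low for either gene, although spindle 8 alone was low in both. Its Cdkn2a level of 6.59 averages samples at 3.15 and 10.02. For both genes, levels below the array medians are close to the floor of the array, so the sizes of these falls are uncertain. Every mouse with Cdkn2b below 4.43 also had Cdkn2a below it (7 mice), whereas 8 mice had low Cdkn2a alone. Among those were spindle 12, with Cdkn2a at 3.11 and Cdkn2b at 8.80, and SCC 31, with 3.14 and 9.64.

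Cdkn2c, which encodes p18Ink4c, ran the other way. It was 1.94-fold higher in spindle carcinomas (8.79 ± 0.82, against 7.83 ± 0.52 in SCCs; log2 difference 0.96, SE 0.19, limma adjusted p = 0.00053), the smallest p of the 9 genes and rank 262 of 12791. Its lowest, median and highest levels were 7.10, 9.06 and 9.71 in spindle mice, and 7.27, 7.74 and 9.91 in SCC mice. In 10 of 13 spindle mice it exceeded the median of the SCC mice.

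**Figure D1:**
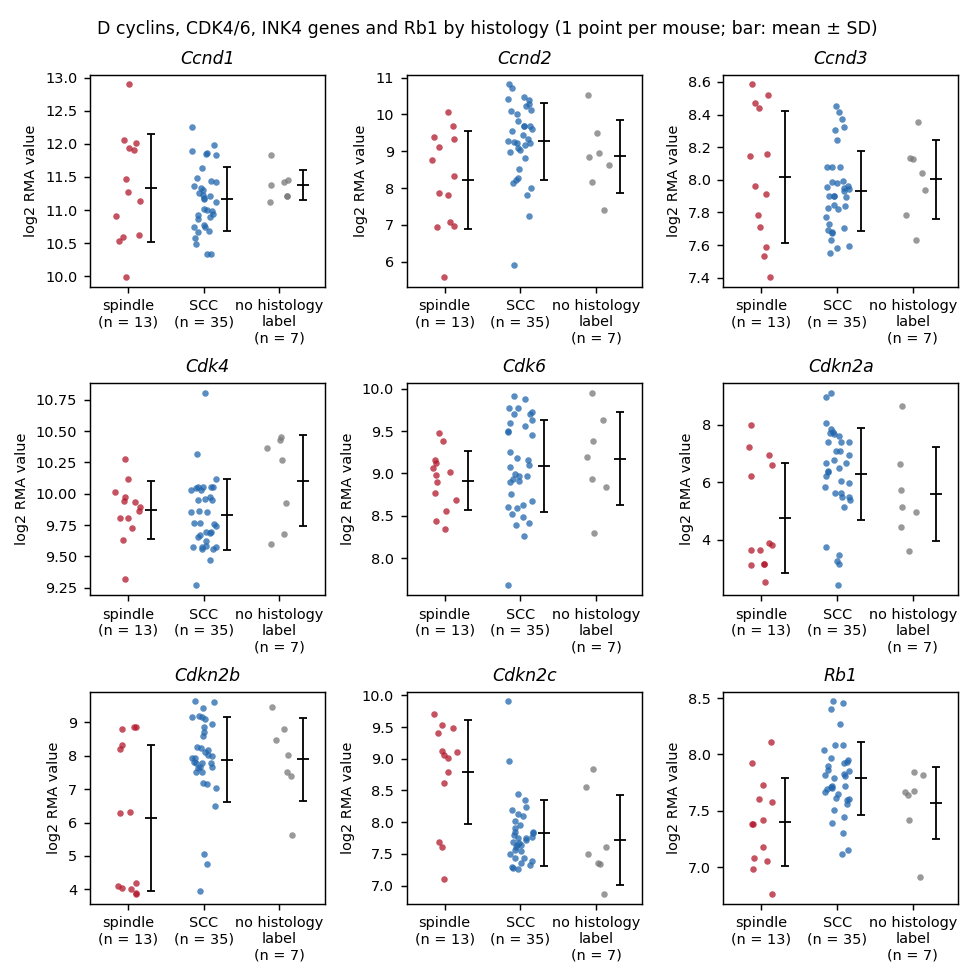
Log2 RMA values (y axes) of the 9 genes in spindle carcinomas, SCCs and tumours with no histology label; each point is 1 mouse and bars give the mean ± SD of 13, 35 and 7 mice. Cdkn2a lies below 4.43 in 8 of 13 spindle mice and Cdkn2b in 6 of 13, and Cdkn2c is high in most spindle mice.

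Among the D cyclins only Ccnd2 passed the test. It was 2.07-fold lower in spindle carcinomas (8.22 ± 1.32, against 9.27 ± 1.04 in SCCs; log2 difference −1.05, SE 0.36, limma adjusted p = 0.0237). It ranged from 5.59 to 10.08 in spindle mice (median 8.32) and from 5.91 to 10.82 in SCC mice (median 9.32). All 7 of its probe sets gave a lower level in spindle carcinomas, with log2 differences of −0.77 to −1.10 and adjusted p of at most 0.045 over the probe sets kept. The 6 other Ccnd2 probe sets followed the one used with r of 0.82 to 0.98 over 60 arrays.

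Ccnd1 lay far above the array medians on every array. Its lowest, median and highest levels were 9.99, 11.28 and 12.90 in spindle mice, and 10.33, 11.17 and 12.25 in SCC mice. The means differed by 0.17 (SE 0.19, limma adjusted p = 0.542; 95% interval −0.21 to 0.54 on the log2 scale). The SD was 0.81 in spindle mice and 0.48 in SCC mice, which was not tested, and the spindle mice held both the lowest and the highest Ccnd1 level of the series. Ccnd3 differed by 0.09 (SE 0.10, adjusted p = 0.554) with the probe set used. A dimmer Ccnd3 set, above the array median on 23 arrays, differed by 0.44 (adjusted p = 0.022 over the probe sets kept). The remaining set differed by 0.04 (adjusted p = 0.749). These sets correlated with the one used at only 0.49 and 0.24 over 60 arrays, so the call for Ccnd3 depends on the probe set.

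The kinases did not pass the test. Cdk4 differed by 0.04 (SE 0.09, limma adjusted p = 0.806; 95% interval −0.14 to 0.22) and Cdk6 by −0.18 (SE 0.16, adjusted p = 0.446; interval −0.50 to 0.15). Rb1, which encodes the retinoblastoma protein, was 1.31-fold lower in spindle carcinomas (7.40 ± 0.39, against 7.79 ± 0.32 in SCCs; log2 difference −0.39, SE 0.11, adjusted p = 0.00736). In 11 of 13 spindle mice it was lower than the median of the SCC mice. The second Rb1 probe set was above the array median on 0 arrays and gives no information.

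These calls moved with the choice of tumours. Without the 9 arrays that went against the sex label, Cdkn2b differed by −1.29 (limma adjusted p = 0.0714), Cdkn2a by −1.25 (0.119) and Ccnd2 by −0.62 (0.23), while the calls for Cdkn2c and Rb1 held. With every sample kept and mouse as a random block, the calls for Cdkn2a (−1.34, adjusted p = 0.0812) and Ccnd2 (−0.90, 0.0651) were lost and the other calls held. Against poorly differentiated SCCs alone, the sizes were close to those above for the INK4 genes and Ccnd2, at −1.66 for Cdkn2b, −1.47 for Cdkn2a, 0.95 for Cdkn2c and −1.05 for Ccnd2, and at −0.28 for Rb1. With 9 SCC mice left, 0 genes of the whole array passed by limma, and 2293 had an unadjusted p under 0.05.

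Markers of keratinocytes moved with the same comparison. All 6 measured of 7 listed markers (Krt5, Krt14, Trp63, Epcam, Cdh1 and Perp) were lower in spindle carcinomas. Their mean log2 level ranged from 6.07 to 12.01 in spindle mice (median 8.45) and from 4.81 to 12.19 in SCC mice (median 11.69). All 4 neutrophil markers were lower too, and 2 of 7 fibroblast markers (Pdgfra and Dcn) and 1 of 6 macrophage markers (C1qa) were higher. Of 3 measured adipocyte markers 2 (Fabp4 and Lipe) were lower, as was Cd8a of 3 measured T cell markers. The part of these markers in the INK4 and Ccnd2 differences was not tested.

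A tumor_class label of 1 or 2, whose meaning the labels do not give, also divided the members. How the label was set, from expression or otherwise, is not given in the sources used here. The classes were therefore not tested against each other, and fits that use the label cannot show why calls are lost. Among spindle carcinomas, Cdkn2a lay between 2.51 and 3.89 on the 9 arrays of class 1 and between 6.20 and 10.02 on the 5 of class 2. Cdkn2c lay between 9.02 and 10.11 in class 1, and between 7.10 and 8.79 in class 2. Neither gene overlapped between the classes, as was the case for 7.36% of all genes tested (2.53% higher and 4.83% lower in class 1). Cdkn2b (3.82 to 8.80 in class 1, 8.20 to 8.86 in class 2) and Ccnd2 (5.59 to 9.34 in class 1, 8.76 to 11.07 in class 2) overlapped. The keratinocyte marker mean was 5.88 to 9.95 in class 1 and 11.22 to 12.08 in class 2.

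The SCCs showed a similar division in fewer tumours. On 5 SCC arrays of class 1 Cdkn2a was 2.40 to 4.40 and Cdkn2b 3.96 to 7.62, against 3.14 to 9.12 and 5.08 to 9.64 on 33 of class 2. Cdkn2c was 8.19 to 9.91 on the class 1 arrays, against 7.27 to 8.44. The keratinocyte marker mean was 4.81 to 9.95 on these 5 arrays, against 10.62 to 12.19 on class 2 arrays, so these tumours labelled SCC were low in the keratinocyte markers listed. With the tumor_class label as a covariate, the spindle minus SCC difference became 0.46 for Cdkn2a, 0.17 for Cdkn2b, 0.24 for Cdkn2c and −0.04 for Ccnd2. None of the 12791 genes passed by limma in this fit (817 had an unadjusted p under 0.05). The mice with samples of both classes (spindle 8 and 9, SCC 22 and 23) entered it as class 1, with averaged levels. For Cdkn2a, the mouse of spindle 8 and 9 thus counted as class 1 at 6.59. Among tumours with no histology label, the classes overlapped in Cdkn2a, at 4.11 to 8.64 on 2 class 1 arrays and 3.61 to 6.62 on 6 class 2 arrays. The class 1 array no histology 8 (p53 mutant) went against this division, with Cdkn2a at 8.64 and Cdkn2b at 9.46, while its Cdkn2c was 8.84. The class 2 arrays no histology 2 and 3 had low Cdkn2a, at 3.61 and 4.43. The class label and histology overlap in part, with 9 spindle arrays in class 1 and 5 in class 2, against 5 and 33 SCC arrays. Because how the label was set is not given, the part of each in these 48 mice cannot be read from this fit.

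**Figure D2:**
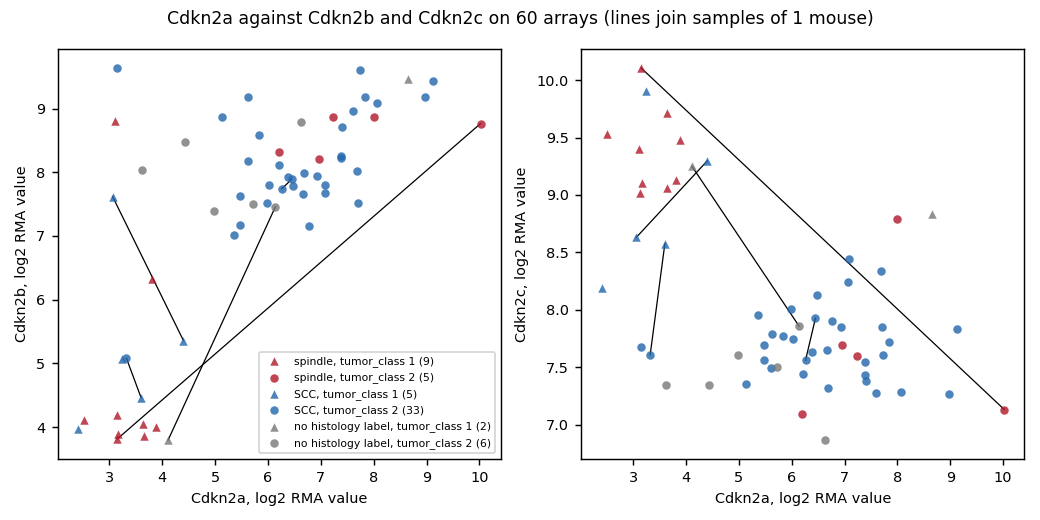
Cdkn2a (x axes) against Cdkn2b (left) and Cdkn2c (right), log2 RMA values on 60 arrays; colour gives the histology, triangles tumor_class 1, circles tumor_class 2, and lines join the 2 samples of 1 mouse. Class 1 arrays lie at low Cdkn2a with high Cdkn2c, except 1 with no histology label (Cdkn2a 8.64, Cdkn2c 8.84), and in 1 spindle mouse the 2 tumours lie far apart.

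The mice with 2 samples showed that these levels could differ within an animal. In 1 p53 mutant mouse, spindle 8 (class 1) had Cdkn2a at 3.15, Cdkn2b at 3.82, Cdkn2c at 10.11 and Ccnd2 at 9.09. Spindle 9 (class 2) of the same mouse had 10.02, 8.76, 7.13 and 11.07. Ccnd1 was similar in both, at 12.28 and 11.84, and Cdk4 at 10.09 and 10.15. Spindle 8 is 1 of the arrays on which both female and male transcripts were found. In the pair with no histology label, the class 1 sample had Cdkn2a at 4.11 and Cdkn2b at 3.80, and the class 2 sample 6.14 and 7.45. In a pair of SCCs that both had class 2, Cdkn2a was 6.45 and 6.26 and Cdkn2b 7.89 and 7.74. In SCC 3 and 4, which both had class 1, Cdkn2a was 3.06 and 4.40 and Cdkn2b 7.62 and 5.36. The last pair, SCC 22 (class 1) and SCC 23 (class 2), was low in both tumours, with Cdkn2a at 3.60 and 3.32 and Cdkn2b at 4.46 and 5.08, and SCC 22 is 1 of the nearly identical arrays.

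Correlations between the members asked which of them varied together from mouse to mouse. Over all 55 mice, 7 of 36 pairs passed a permutation test (100000 resamples, two-sided, Benjamini-Hochberg over 36 pairs) by Pearson's r. Since several members differed between histologies, values are given within them. Over 35 SCC mice, 6 of 36 pairs passed by r, all among Ccnd2 and the INK4 genes. Ccnd2 and Cdkn2b had r = 0.73 (adjusted p = 0.00072; Spearman's rho 0.60, adjusted p = 0.00384; r = 0.68 without the 2 mice farthest in Ccnd2). Cdkn2b and Cdkn2c had r = −0.63 (adjusted p = 0.00351; rho −0.65, adjusted p = 0.0018; r = −0.73 without the 2 mice farthest in Cdkn2b). Without the 4 SCC mice that had a class 1 tumour, 0 of 36 pairs passed. The same pairs then had r = 0.45 (adjusted p = 0.197; rho 0.46, adjusted p = 0.114) and r = −0.46 (adjusted p = 0.197; rho −0.54, adjusted p = 0.0713) in 31 mice, by the same permutation test. Cdkn2a and Cdkn2b, which are neighbours on chromosome 4, had r = 0.22 in these mice (adjusted p = 0.604; rho 0.35, adjusted p = 0.258). These relations kept their sign without the 4 mice but no longer passed. Among 13 spindle mice 0 pairs passed.

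The p53 comparison asked whether the members differ in tumours whose p53 is mutant, since p19Arf acts through p53. No member passed the test, beside 0.281% of all genes (0.219% higher and 0.0625% lower). At an unadjusted p under 0.05 there were 3 members, Ccnd1, Cdkn2a and Cdk4, beside 11.2% of all genes. Cdkn2a was 6.74 ± 1.35 in 14 p53 mutant mice and 5.53 ± 1.82 in 41 others (log2 difference 1.21, SE 0.52, unadjusted p = 0.0237, limma adjusted p = 0.347). Its lowest, median and highest levels were 3.16, 6.64 and 8.64 in p53 mutant mice and 2.40, 5.61 and 9.12 in the others. It was above the median of the others in 13 of 14 p53 mutant mice. Among these 13 is the mouse of spindle 8 and 9, whose level of 6.59 averages samples at 3.15 and 10.02. Cdkn2b was 7.98 ± 1.41 in p53 mutant mice and 7.30 ± 1.75 in the others (log2 difference 0.68, SE 0.51, limma adjusted p = 0.665).

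Ccnd1 was 1.36-fold higher with p53 mutation in its brightest probe set, at 11.56 ± 0.42, against 11.12 ± 0.55 (log2 difference 0.45, SE 0.16, unadjusted p = 0.00715, limma adjusted p = 0.224). The lowest, median and highest levels were 10.94, 11.65 and 12.06 in p53 mutant mice and 9.99, 11.17 and 12.90 in the others. Its other probe sets differed by 0.69 (SE 0.17, adjusted p = 0.058 over the probe sets kept) and by 0.55 (SE 0.15, adjusted p = 0.078). All 3 sets followed each other, with r of 0.88 and 0.90 to the one used. Cdk4 also stood higher (10.01 ± 0.37, against 9.83 ± 0.25; log2 difference 0.18, SE 0.09, unadjusted p = 0.0444, adjusted p = 0.426).

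Within spindle carcinomas, Ccnd1 was 11.90 to 12.06 in the 4 p53 mutant mice and 9.99 to 12.90 in the 9 others, of which 8 were at or below 11.47. The level of 12.06 is the mean of samples at 12.28 and 11.84 from 1 mouse. Within SCCs it was 10.94 to 11.98 in 8 p53 mutant mice (median 11.39), against 10.33 to 12.25 in 27 others (median 11.12). The p53 difference of Ccnd1 was larger in spindle carcinomas than in SCCs by 0.65 (SE 0.38, limma adjusted p for the interaction 0.814), so a difference between the histologies was not shown. No interaction passed for any gene of the array, and 6.23% had an unadjusted p under 0.05. The p53 label also overlapped with grade, since 5 of the 8 p53 mutant SCC mice had poorly differentiated tumours.

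**Figure D3:**
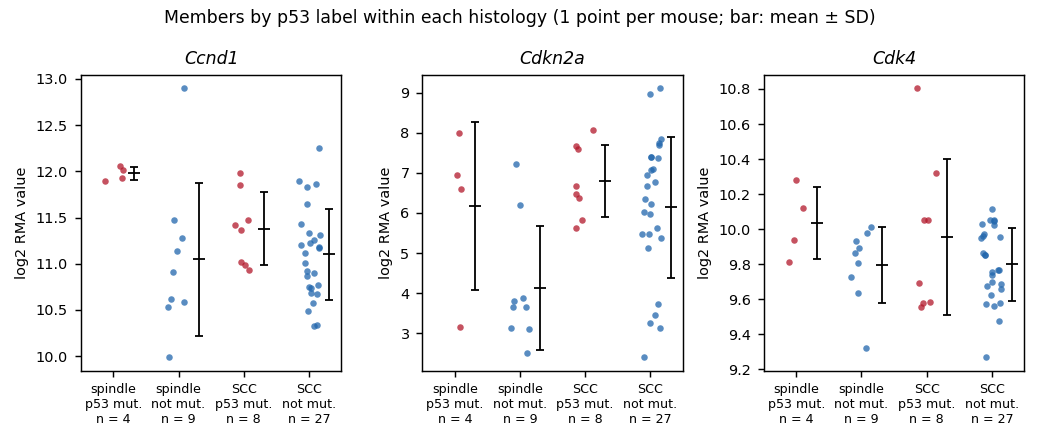
Log2 RMA values (y axes) of Ccnd1, Cdkn2a and Cdk4 by p53 label within spindle carcinomas (4 mutant, 9 not mutant) and SCCs (8 mutant, 27 not mutant); points are mice and bars the mean ± SD. Mouse means of Ccnd1 lie between 11.90 and 12.06 in the 4 p53 mutant spindle mice, the highest averaging samples at 12.28 and 11.84.

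The papilloma comparison asked whether carcinomas of mice that had resisted papillomas differ from those of sensitive mice. No member passed, as was true of every gene on the array (0% called, 8.25% with an unadjusted p under 0.05). Ccnd1 came nearest, at 11.43 ± 0.60 in 17 resistant mice and 11.04 ± 0.41 in 16 sensitive mice (log2 difference 0.40, SE 0.18, unadjusted p = 0.0299, limma adjusted p = 0.555). Its lowest, median and highest levels were 10.49, 11.37 and 12.90 in resistant mice and 10.33, 11.05 and 11.83 in sensitive mice. Ccnd1 was above the sensitive median in 12 of 17 resistant mice. The p53 label overlapped here as well, being mutant in 8 resistant and 2 sensitive mice.

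Across the grades of SCC no member was called, and neither was any other gene (0% in each of the 3 comparisons). Unadjusted p under 0.05 were found for 5.37% of genes between poor and well, 2.49% between moderate and well, and 8.51% between poor and moderate grade. The lowest unadjusted p among the members were for Ccnd3 and Cdk6 between poor and moderate grade. Ccnd3 was 8.07 ± 0.26 in 9 poorly and 7.82 ± 0.16 in 13 moderately differentiated SCC mice (log2 difference 0.24, SE 0.10, unadjusted p = 0.0249, limma adjusted p = 0.575). Cdk6 was 8.87 ± 0.51 and 9.35 ± 0.46 in the same groups (log2 difference −0.48, SE 0.22, unadjusted p = 0.0347, adjusted p = 0.575). Cdkn2a was 6.23 ± 1.74 in poorly, 6.05 ± 1.43 in moderately and 6.57 ± 1.77 in well differentiated SCCs. Low Cdkn2a tumours occurred in all 3 grades, but in the poor grade only as SCC 21 (2.40, against 5.47 to 8.07 in the others). SCC 21 is nearly identical to SCC 22, a low tumour of moderate grade from another mouse.

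Genes around the switch were read from lists, whose counts stand beside 15.5% of all genes called higher and 11% called lower. In spindle carcinomas against SCCs, Cdkn1a, the CDK inhibitor p21 and a p53 target, fell by 0.72 on the log2 scale (SE 0.16, limma adjusted p = 0.00077), the only 1 of 4 further CDK inhibitor genes to pass. Of the pocket proteins related to Rb1, Rbl1 (p107) fell by 0.36 and Rbl2 (p130) rose by 0.56. Of 10 E2F and DP genes, 2 rose (E2f1 by 0.41 and Tfdp2 by 0.40) and 0 fell, with a list median of 0.10 beside 0.02 over all genes. Ccne1, the cyclin that acts after the D cyclins, fell by 0.51, the only 1 called of 5 cyclin E, cyclin A and CDK2 genes. Of 17 E2F-driven S phase genes, 2 rose (Cdc45 by 0.49 and Gins2 by 0.34, both of the replicative helicase) and 0 fell, with a median of 0.04, so that the share that rose was below that of all genes. Of 9 proliferation markers, Foxm1, a transcription factor of mitotic genes, rose by 0.69 and the rest did not pass (list median 0.16).

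Upstream of the INK4 locus, Bmi1, a Polycomb protein known to repress Cdkn2a, rose by 0.41 (SE 0.12, limma adjusted p = 0.00981). Id1, reported in other cells to restrain Cdkn2a, fell by 0.94 (SE 0.27, adjusted p = 0.00847), and the other 7 of 9 repressors did not pass. None of 9 measured inputs to cyclin D passed (list median 0.12). Of 4 genes of the ARF-p53 axis, Cdkn1a and Ccng1, both p53 targets, were lower in spindle carcinomas. Ccng1 was also the only gene of any list called with p53 mutation, where it fell by 0.72 (SE 0.17, adjusted p = 0.0467). That call was lost without the arrays that went against the sex label, where 0 genes were called by p53. No list gene was called by grade or papilloma class.

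Each member was then set beside every other gene by Pearson's r over 55 mouse means, as a description; all values share the same arrays and normalisation. Ccnd1 was most like Rplp2, a ribosomal protein gene (r = 0.65), Cpe (0.65) and Deaf1 (0.61). Cdk4 was most like Smarcb1, a subunit of the SWI/SNF chromatin remodeller (0.73), Tfam, a mitochondrial transcription factor (0.67), and Nedd1 (0.65). Cdk6 was most like Selenoi (0.70), Zdhhc21 (0.68) and 2700038G22Rik (0.62).

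The position of these genes was shared where the rule had not used it. Of the 50 genes most like Ccnd1, 33 lay on its own chromosome 7 (66%), which holds 7.80% of the genes tested. Of the 50 most like Cdk4, 30 lay on its own chromosome 10 (60%, against 4.66% of genes). For Cdk6, 13 of 50 lay on chromosome 5 (26%, against 6.33%). Cdkn2a had 8 of 50 on chromosome 4 (16%, against 6.03%), and 4 of 50 without the arrays that went against the sex label or were nearly identical. The other members had 1 to 3 of 50 on their own chromosome, which was 2% to 6% against 3.37% to 6.03% of genes. For Ccnd1 and Cdk4 the share stayed above that of all genes in the 35 SCC mice alone (29 and 26 of 50), in the 41 mice whose p53 label was not mutant (43 and 27 of 50), and without the arrays that went against the sex label or were nearly identical (30 and 27 of 50 in 45 mice). In the 31 SCC mice with class 2 tumours only, it was 22 of 50 for Ccnd1 (44%) and 28 of 50 for Cdk4. For Cdk6 the share also stayed above that of all genes, at 12, 10, 10 and 12 of 50 in these 4 sets of mice in turn. Cdkn2b had 7 of 50 in the 35 SCC mice (14%, against 6.03%), and 3, 3 and 4 of 50 in the other sets.

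**Figure D4:**
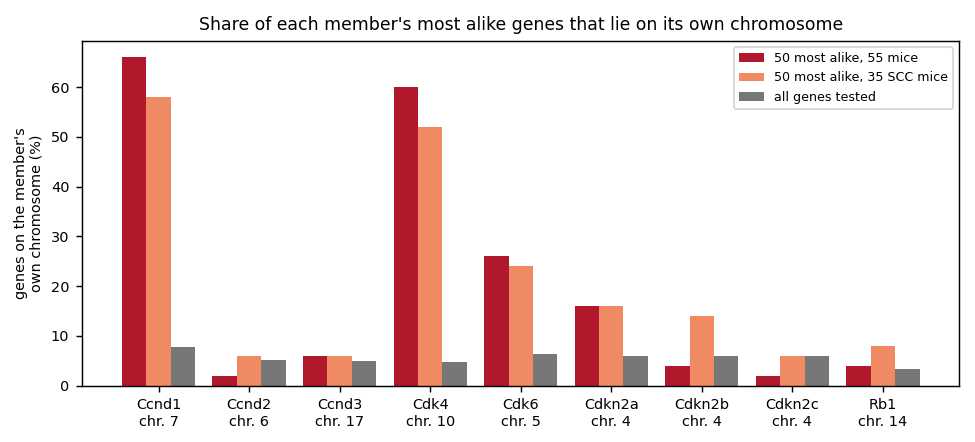
Share (%) of the 50 genes most like each member that lie on the member's own chromosome, over 55 mice and over 35 SCC mice, beside the share of all genes tested on that chromosome. Ccnd1 (66%) and Cdk4 (60%) stand far above their background of 7.80% and 4.66%.

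The genes nearest to Ccnd1 showed this closely. Ccnd1 lies towards the end of chromosome 7, and 94 of its 120 neighbours within 5 Mb passed the filter on low values. Of these, 75 had a positive r with Ccnd1, with a median of 0.25 beside −0.02 over all genes, of which 45.2% were positive. The 4 of highest r were Rplp2 (0.65), Deaf1 (0.61), Phrf1 (0.59) and Taldo1 (0.58), all between 3.48 and 3.70 Mb away. The 37 genes of the whole array with r above 0.5 included 10 of these neighbours, among them Ano1, LTO1 and Cttn within 0.5 Mb of Ccnd1. Not all genes as close followed it. Of the others measured within 0.5 Mb, Ppfia1 had 0.39, Fadd 0.37, Smim38 0.05, Tpcn2 −0.01, and Fgf4 and Mrgprf −0.19 each. In the 35 SCC mice 78 of 94 were positive, with a median of 0.16. Between groups, 69.1% of the neighbours were higher with p53 mutation (51.5% of all genes) and 74.5% were higher in resistant mice (51.1%), with 0 called in either comparison. Between spindle carcinomas and SCCs 54.3% were higher, beside 54.2% of all genes. Across grades 64.9% were higher in poor than in well (52.0% of all genes), 64.9% in moderate than in well (44.6%), and 42.6% in poor than in moderate (54.4%). Over the whole of chromosome 7, 48.5% of 998 genes were higher with p53 mutation and 58.4% in resistant mice.

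**Figure D5:**
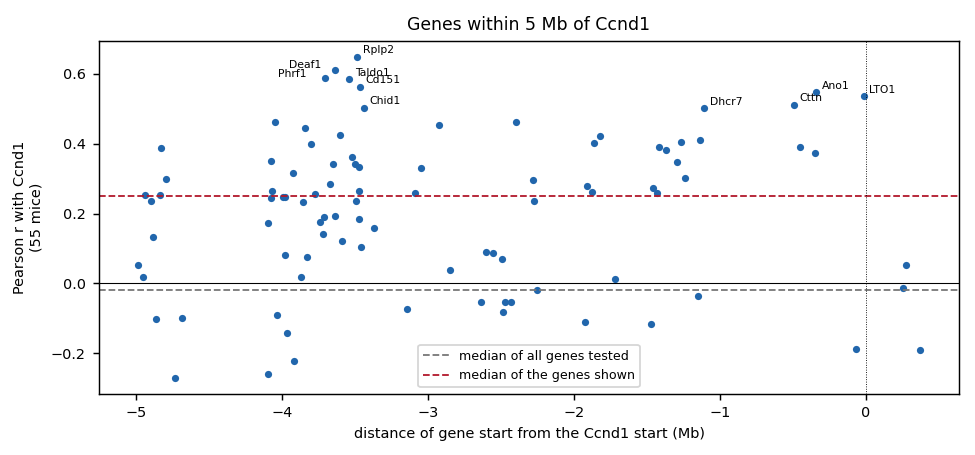
Pearson r with Ccnd1 over 55 mice (y axis) against the distance of each gene's start from that of Ccnd1 (x axis, Mb; negative values lie towards the centromere) for 94 genes within 5 Mb. Most points lie above 0, with a median of 0.25 against −0.02 for all genes tested.

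The INK4 locus on chromosome 4 was read over a narrower window with fewer genes, so it is not directly comparable. Of 7 measured genes within 2 Mb of Cdkn2a, only Cdkn2b followed it closely (r = 0.70 over all mice). The next was Focad at 0.19, and Mtap, which lies beside Cdkn2a, had −0.03. With Cdkn2b, Mtap had 0.01 and Mllt3 −0.46. In the 35 SCC mice alone, Mtap had 0.20 with Cdkn2a and 0.25 with Cdkn2b, and Mllt3 had −0.32 with Cdkn2b.

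The genes most like the remaining members lay mostly on other chromosomes. Cdkn2a was most like Cd24a, a surface glycoprotein gene (0.75), Tmem40 (0.72) and Wnt4, a signalling ligand (0.71). Cdkn2b was most like Gsta4, a glutathione transferase gene (0.81), Ppbp, a chemokine gene (0.80), and Tmem40 (0.78). Ccnd2 was most like Ptprk, a receptor phosphatase gene (0.73), Agrn, which encodes agrin (0.72), and Moxd1 (0.70). Cdkn2c was most like Arhgap22 (0.88), Sorbs3 (0.86) and Thra, a thyroid hormone receptor gene (0.85), the highest likeness of any member. Ccnd3 was most like Tor1aip1, Ifngr1 and Celf2 (0.64, 0.64 and 0.63), and Rb1 most like Golga4, Cyb5r4 and Rffl (0.72, 0.69 and 0.66).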

How the data were processed

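Each carcinoma was hybridised to its own Affymetrix mouse expression array. The authors deposited RMA output as log2 values, 1 per probe set; RMA subtracts background, equalises the distribution of all arrays and summarises the probes. A shift of most genes would thus be removed. No RMA version or genome build is given in the sources used here. There are no read depths, and precision is limited by the number of arrays.

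Of 45101 probe sets, 34958 had a single symbol, 932 several and 9211 none. Symbols were updated through RefSeq (assembly GRCm38.p6), which matched 34754 and was otherwise used for neighbours and promoters. The probe set of highest mean stood for a gene, samples of 1 mouse were averaged, and genes that exceeded the median of their array on 8 or more arrays were kept. limma 3.58.1 (lmFit, eBayes) in R 4.3.3 was used, with the 3 SCC grades in 1 model. The code was tested on simulated data. Correlations and figures used Python 3.11.15 (numpy 2.4.6, scipy 1.17.1, matplotlib 3.10.9). Mice are the replicates.

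The members, lists and tests were chosen with earlier results of these data known. Named genes are all members and their probe sets, the 3 genes most like each member, the 4 closest neighbours by r, and up to 4 called members of each list per comparison. Other neighbours, the tumor_class values and single tumours were chosen after their values were seen. Alternatives covered filters, probe sets, normalisation, every sample with mouse as a random block, covariates and subsets of arrays or mice.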

Additional observations from a re-analysis of the deposited data

Results flagged for a closer look

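Of 45 groups of 4 to 9 mice (9 genes in 5 groups), 3 held a mouse far from the others by Dixon's criterion, and chance alone flags about 1 in 20. All 3 were SCC 21 among the 9 poorly differentiated SCC mice. Its Ccnd2 was 5.91, against 8.82 to 10.82 in the other mice of that grade. Its Cdkn2a was 2.40, against 5.47 to 8.07, and its Cdkn2b was 3.96, against 7.18 to 9.17. SCC 21 has tumor_class 1 and is 1 of the 4 nearly identical arrays (r = 0.988 to SCC 22, of another mouse). Their part in these values was not tested.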

How the results depend on the processing

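Grades and papilloma class gave 0 called genes under all alternatives run, the interaction was fitted in its main form alone, and no member was called by p53 under any. Between spindle carcinomas and SCCs, 3391 genes were called. The count was 5249 with every probe set tested, and 0 with the tumor_class label as a covariate or with poorly differentiated SCCs only. With every sample kept and mouse as a random block, the calls for Ccnd2 (adjusted p = 0.0651) and Cdkn2a (0.0812) were lost. For p53, 36 genes were called. The count was 10 with no filter or a common 75th percentile, 9 with every probe set tested, 23 with the mean of probe sets, 13 with every sample and 18 with origin as a covariate. It was 0 without arrays against the sex label, 8 without near-identical arrays, 14 in SCC mice, 0 in spindle mice, and 5 in SCC mice with grade as a covariate, which was added after the data were seen. Correlated pairs of members numbered 7 over all mice, 0 in spindle mice and 0 in SCC mice of tumor_class 2 (added likewise). No paired analysis was possible because the labels give groups no shared replicate numbers. The cause of these changes was not tested.

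Signs turned mostly for differences near 0, all log2. With tumor_class as a covariate, spindle minus SCC was 0.46 for Cdkn2a, 0.17 for Cdkn2b and −0.053 for Ccnd3. Against poorly differentiated SCCs only it was −0.052 for Ccnd3, −0.064 for Cdk4 and 0.047 for Cdk6. For p53, Ccnd3 was 0.0023 in SCC mice, and Cdk6 0.42 and Rb1 0.17 in spindle mice. With the mean of probe sets, Cdk6 was 0.074 for p53, 0.00017 for poor minus well, and Ccnd3 0.016 for resistant minus sensitive.

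Poor minus well turned to 0.018 (every sample), 0.026 (mean of probe sets), 0.040 (sex) and 0.27 (without near-identical arrays) for Ccnd2. Without near-identical arrays it was 0.016 for Cdkn2a and 0.35 for Cdkn2b. Without arrays against the sex label it was 0.038 for Cdk6 and 0.28 for Cdkn2c. With the p53 label it was −0.016 for Cdk4. Moderate minus well for Rb1 was −0.012 (mean of probe sets), −0.033 (origin) and −0.00038 (without arrays against the sex label).

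Poor minus moderate for Ccnd1 was 0.00054 (every sample), 0.032 (mean of probe sets), 0.0083 (origin), 0.061 (sex), 0.13 (without arrays against the sex label) and 0.044 (without near-identical arrays). For Ccnd2 it was −0.16 (p53 label) and −0.23 (without arrays against the sex label), and for Cdkn2a −0.20 and −0.14. For Cdkn2b it was 0.053 (every sample), 0.041 (sex) and 0.41 (without near-identical arrays). Resistant minus sensitive turned to 0.28 (origin), 0.33 (papillomas at 24 weeks), 0.034 (slope on papilloma count) and 0.26 (without near-identical arrays) for Cdkn2b. For Cdkn2c the same 4 settings gave −0.077, −0.047, −0.0048 and −0.030.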
